A study of Mus musculus with 4 samples.

Results

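The loci of 7 lineage regulators, Gata4, Gata6, Sox17, Foxa2, T, Pax6 and Cdx2, were examined in ChIP-seq libraries of mouse embryonic stem (ES) cells. The members were given as 7 fixed windows of the mm9 genome, together 260 kb, and all reads and called peaks in these windows were counted. They held 20 of the 32256 H3K4me2 peaks of the genome, 2 of its 5106 LSD1 peaks and 0 of its 158 IgG peaks. Of the reads, 1326 of 5833862 in the LSD1 library, 1764 of 6416657 in the H3K4me2 library, 717 of 4755619 in the control IgG library and 400 of 3801082 in the Input library fell in the windows. The cells were the R1 line of 129SV origin, kept on gelatin with leukaemia inhibitory factor at 1000 U/ml and taken at passages 13 to 18. One ChIP used an antibody labelled as against LSD1, another an antibody against histone H3 dimethylated on lysine 4 (H3K4me2) and another control IgG, while the Input was genomic DNA taken before precipitation. Each group held 1 library, so no value could be checked against a replicate and none has a p-value. Intervals in brackets are exact 95% intervals and cover counting error within these libraries.

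LSD1 takes methyl groups off lysine 4 of histone H3 when 1 or 2 of them are present, and H3K4me2 marks promoters and enhancers, also at many genes that are poised rather than transcribed. Polycomb complexes keep lineage regulators silent in ES cells and mark them with trimethylated lysine 27 of histone H3 (H3K27me3), often beside lysine 4 methylation in CpG-rich promoters. Transcription, Polycomb proteins and H3K27me3 were not measured in these libraries, so the description of the genes as silent and under Polycomb is background and could not be checked here. For the LSD1 ChIP the labels name an antibody by a catalogue number under which another company sells one against H3K27me3. Which protein or mark this antibody recovered was not tested, and the name LSD1 below follows the label.

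The genes fall into groups by role. Gata4 and Gata6 are zinc finger factors of the extraembryonic endoderm and the heart. Sox17 is an HMG box factor of the endoderm, and Foxa2 is a forkhead factor of the endoderm, node and floor plate. T (Brachyury) is the T-box factor of the early mesoderm. Pax6 is a paired box factor of the eye and the neural tube, and Cdx2 is a homeobox factor of the trophectoderm and the posterior embryo.

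Promoter sequences of 4 of the 7 genes were matched in the RefSeq table, with 7 start sites in all. They are shown because Polycomb targets in ES cells are known for CpG-rich promoters. The 250 bases before the most upstream listed start of each gene are given 5′ to 3′ on the strand of the gene, with each CG dinucleotide (the same on both strands) in capitals.
Foxa2: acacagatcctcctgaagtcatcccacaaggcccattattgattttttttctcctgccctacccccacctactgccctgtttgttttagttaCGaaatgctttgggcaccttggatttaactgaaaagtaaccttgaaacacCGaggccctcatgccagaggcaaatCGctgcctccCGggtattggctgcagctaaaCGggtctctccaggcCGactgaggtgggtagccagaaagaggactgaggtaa
T: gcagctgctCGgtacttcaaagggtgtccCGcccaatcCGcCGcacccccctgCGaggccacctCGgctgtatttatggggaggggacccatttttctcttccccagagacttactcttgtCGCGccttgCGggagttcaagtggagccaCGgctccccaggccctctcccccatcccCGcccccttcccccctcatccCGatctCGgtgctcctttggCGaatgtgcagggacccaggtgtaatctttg
Pax6: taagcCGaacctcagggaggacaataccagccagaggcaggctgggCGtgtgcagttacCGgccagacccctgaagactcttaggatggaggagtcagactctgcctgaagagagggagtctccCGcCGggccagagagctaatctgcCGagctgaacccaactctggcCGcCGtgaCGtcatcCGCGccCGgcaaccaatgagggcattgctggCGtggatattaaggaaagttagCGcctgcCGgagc
Cdx2: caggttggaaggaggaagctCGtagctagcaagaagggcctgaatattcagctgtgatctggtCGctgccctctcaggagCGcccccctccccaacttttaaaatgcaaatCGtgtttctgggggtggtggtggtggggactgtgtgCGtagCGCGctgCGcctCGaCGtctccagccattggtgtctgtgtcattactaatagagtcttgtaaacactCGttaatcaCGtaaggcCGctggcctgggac
In GRCm38.p6 these lie at chr2:148046970-148047219 on the minus strand (Foxa2), chr17:8434173-8434422 on the plus strand (T), chr2:105668646-105668895 on the plus strand (Pax6) and chr5:147307250-147307499 on the minus strand (Cdx2). The build differs from the mm9 of the reads, so these promoters were not placed within the windows below. The Foxa2 stretch held 6 CG, the T stretch 14, the Pax6 stretch 15 and the Cdx2 stretch 13, against a median of 6 over 32851 promoters of the same length, 92.1% of which held at least 1 CG. Shares of promoters with fewer CG were 49.6% for Foxa2, 70.6% for T, 72.7% for Pax6 and 68.5% for Cdx2. A second listed Foxa2 start had 20 CG, more than 82.0% of promoters, so the low count belonged to 1 of the 3 Foxa2 starts.

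All 7 windows together carried more ChIP reads than the controls. The LSD1 library had 0.874 reads per 1000000 reads of the library (RPM) per kb (0.828 to 0.923), the H3K4me2 library 1.06 (1.01 to 1.11), IgG 0.580 (0.538 to 0.624) and Input 0.405 (0.366 to 0.446). Over the autosomes as a whole the 4 libraries lay between 0.401 and 0.406 RPM per kb. The LSD1 to IgG ratio in the windows was 1.51 (1.38 to 1.65) and the H3K4me2 to IgG ratio 1.82 (1.67 to 1.99). IgG itself exceeded Input in the windows by 1.43-fold (1.27 to 1.62), so the control ChIP shared part of the excess over Input. With Input as the control the ratios were 2.16 (1.93 to 2.42) for LSD1 and 2.61 (2.34 to 2.92) for H3K4me2.

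**Figure D1:**
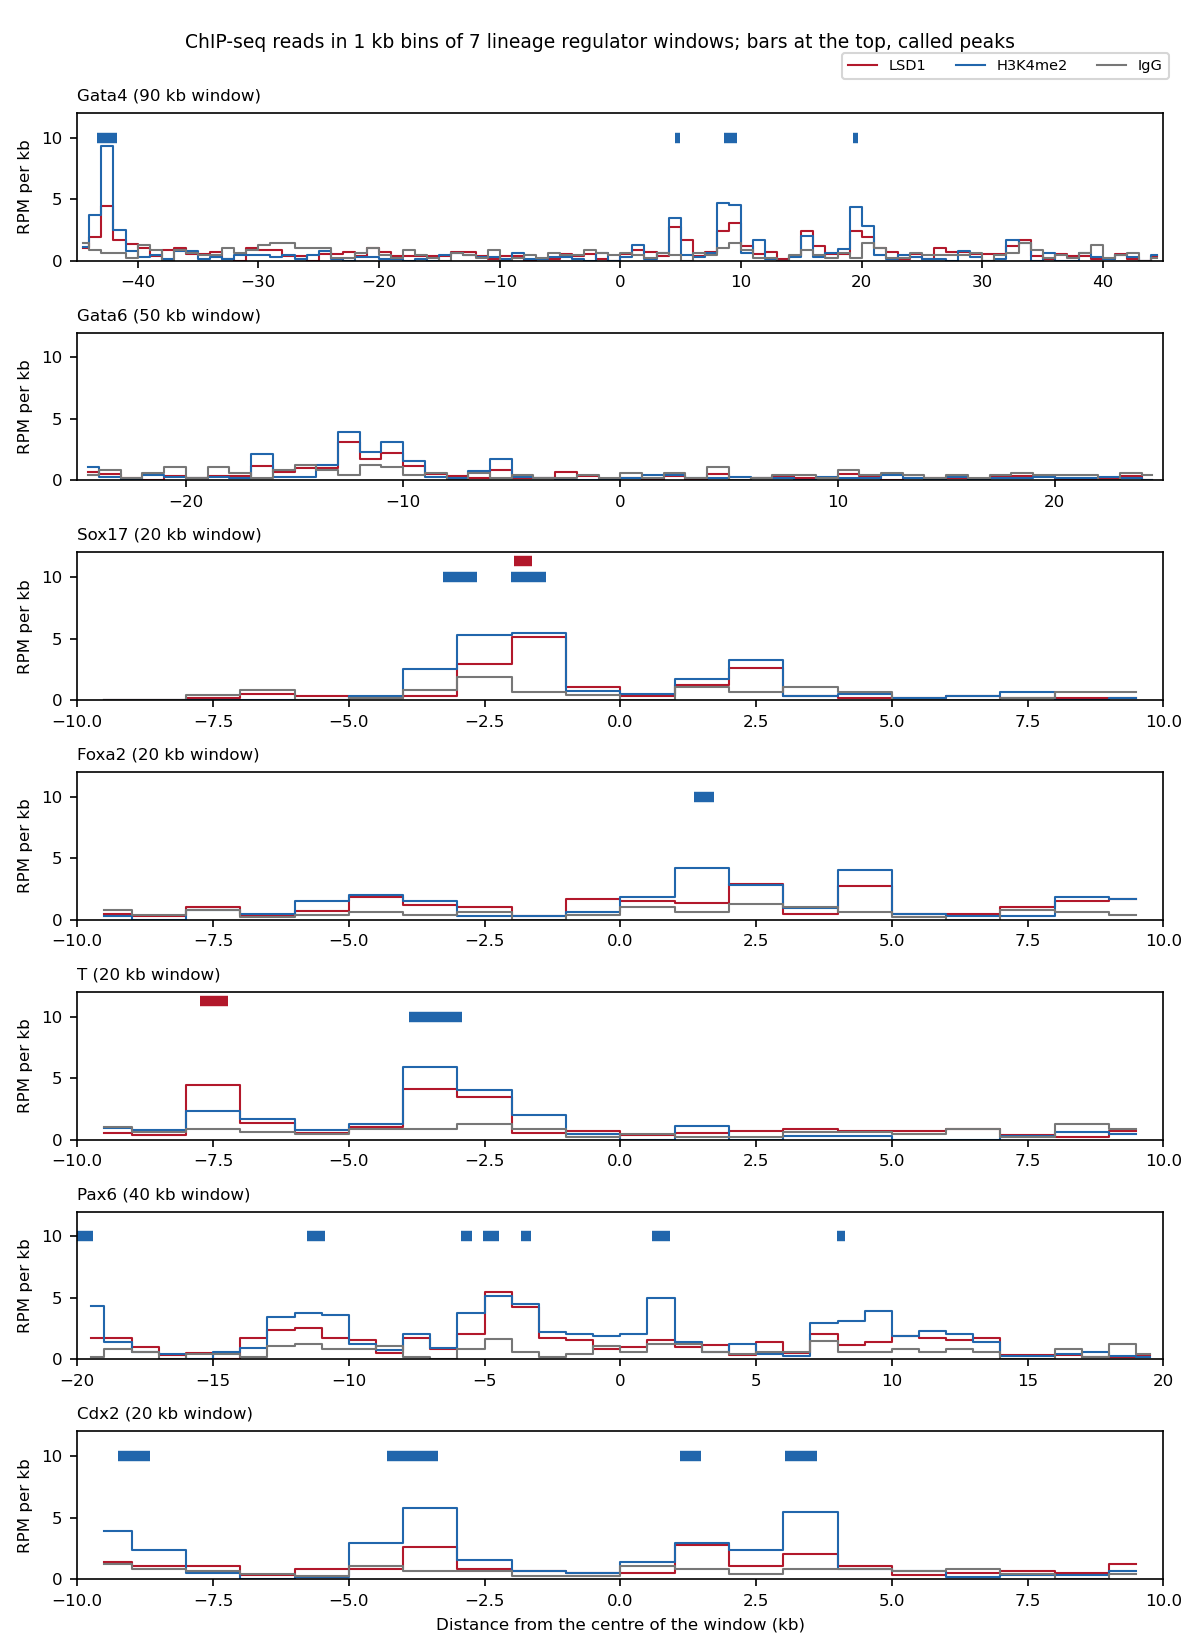
Reads of the LSD1, H3K4me2 and IgG libraries in 1 kb bins (RPM per kb) against the distance from the centre of each window in kb, with called LSD1 and H3K4me2 peaks as bars at the top. The red and blue lines rise at the same places in most windows, the Gata6 window has no called peak, and the LSD1 peak of the T window stands apart from the H3K4me2 peak.

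Gata4 has the widest window, chr14:63810001-63900000. It held 389 LSD1 and 445 H3K4me2 reads, against 247 IgG and 131 Input reads. Over the window as a whole the ratio to IgG was 1.28 (1.09 to 1.51) for LSD1 and 1.34 (1.14 to 1.57) for H3K4me2. The excess over IgG was found in and beside 5 H3K4me2 peaks that covered 3.95% of the window. In them LSD1 was 4.95-fold over IgG (2.74 to 9.71) and H3K4me2 9.24-fold (5.25 to 17.7). More than 500 bp away from any peak LSD1 stood at 0.998 of IgG (0.831 to 1.20) and H3K4me2 at 0.761 (0.629 to 0.921). IgG was itself 1.43-fold over Input there (1.14 to 1.81). LSD1 over Input was likewise 1.43 (1.15 to 1.79), against 0.884 over the autosomes outside H3K4me2 peaks. H3K4me2 over Input was 1.09 (0.873 to 1.37), against 0.771. An excess of LSD1 over Input thus remained away from the peaks. H3K4me2 peaks, here and in the other windows, were called on the H3K4me2 reads counted here. Their high H3K4me2 to IgG ratio therefore follows from the call. The peak with the most H3K4me2 reads, chr14:63811667-63812728, held 27 LSD1 and 58 H3K4me2 reads against 4 IgG and 1 Input. Its H3K4me2 density of 8.51 RPM per kb was at or above that of 85.1% of the H3K4me2 peaks of equal width (within 10%). This peak and the next, chr14:63812743-63813300 with 11 LSD1, 26 H3K4me2, 1 IgG and 3 Input reads, sit at the edge of the window. Neil2 neighbours Gata4 in the gene order of GRCm38.p6, and no mm9 annotation was at hand to say to which gene these peaks belong. In the inner 80% of the window, which leaves them out, H3K4me2 to IgG was 1.16 (0.967 to 1.40) and LSD1 to IgG 1.22 (1.02 to 1.47). The H3K4me2 interval then reached 1. A ratio of 1 is not the level of the genome, since the median H3K4me2 to IgG ratio was 0.698 over all autosomal tiles of 90 kb. Over those with an H3K4me2 peak it was 1.17.

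Inside the Gata4 window the widest peak, chr14:63863592-63864656, held 24 LSD1 and 47 H3K4me2 reads against 7 IgG and 0 Input. It was of middle rank among peaks of equal width, with 42.6% of them at or below its H3K4me2 density. The short peak chr14:63859530-63859917 had 9 LSD1 and 13 H3K4me2 reads and no read in either control. H3K4me2 there was 3.21-fold higher than a floor of 3 IgG reads, and the lower limit of its exact interval over IgG was 2.26. None of the 5 peaks held a called LSD1 peak.

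Gata6, in chr18:11040001-11090000, was the only member without a called peak in any list. Its 133 LSD1 and 168 H3K4me2 reads compared with 118 IgG and 81 Input reads, giving ratios to IgG of 0.919 (0.712 to 1.19) for LSD1 and 1.06 (0.829 to 1.35) for H3K4me2. The reads were nevertheless not evenly spread. The 5 kb tile with the most H3K4me2 reads, chr18:11050001-11055000, held 53 LSD1, 70 H3K4me2, 23 IgG and 10 Input reads, or 39.8% of the LSD1 and 41.7% of the H3K4me2 reads of the window. H3K4me2 in this tile was 2.26-fold over IgG (1.39 to 3.79) and LSD1 1.88-fold (1.13 to 3.21), in a tile chosen for its reads. It was also the tile of the window with the most IgG reads. Choosing the densest 5 kb in the same way in the 34285 autosomal tiles of 50 kb with no H3K4me2 peak gave a median of 11 H3K4me2 reads, and 0.548% of those tiles reached the 70 reads found at Gata6. In the 12713 tiles of 50 kb with a peak the median was 79, and 60.8% reached 70.

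Sox17, in chr1:4475001-4495000, held 95 LSD1 and 140 H3K4me2 reads against 48 IgG and 33 Input reads. LSD1 to IgG was 1.61 (1.13 to 2.33) and H3K4me2 to IgG 2.16 (1.55 to 3.07). Its pair of H3K4me2 peaks differed in LSD1 reads: chr1:4481730-4482355 held 10 LSD1 and 25 H3K4me2 reads with 5 IgG and 0 Input, and chr1:4482986-4483624 held 24 LSD1 and 28 H3K4me2 reads with 3 IgG and 2 Input. The LSD1 to H3K4me2 ratio, of RPM in both libraries, was 0.440 (0.189 to 0.949) in the first peak and 0.943 (0.523 to 1.69) in the second, and these intervals overlap. The second ranked high, with 97.4% of H3K4me2 peaks of equal width at or below its ratio. It contains the only LSD1 peak of the 7 windows that lies in an H3K4me2 peak, chr1:4483044-4483377. This LSD1 peak held 13 LSD1 and 19 H3K4me2 reads and none in IgG or Input. It was called on the LSD1 reads counted here, so LSD1 is high in it by the call. The same reads enter the rank of the H3K4me2 peak around it. LSD1 in this LSD1 peak was 3.53-fold higher than a floor of 3 IgG reads. The lower limit of the exact interval of its LSD1 to IgG ratio was 2.48. Its LSD1 to H3K4me2 ratio of 0.753 (0.342 to 1.61) had 34.3% of all LSD1 peaks at or below it. With read starts counted where they were, without the move of 100 bp along the strand, this ratio was 2.06 (0.821 to 5.62).

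Foxa2, in chr2:147860001-147880000, had the smallest share of its window in H3K4me2 peaks, 1.88%, among the 6 windows with one. The window held 137 LSD1 and 170 H3K4me2 reads against 55 IgG and 36 Input. Its single H3K4me2 peak, chr2:147871348-147871723, was 376 bp wide and held 3 LSD1 and 14 H3K4me2 reads with 1 IgG and 0 Input. More than 500 bp from that peak there remained 123 LSD1 and 136 H3K4me2 reads against 51 IgG and 33 Input. The ratios to IgG outside the peak were 1.97 (1.41 to 2.78) for LSD1 and 1.98 (1.42 to 2.78) for H3K4me2. Over the whole window they were 2.03 (1.47 to 2.83) for LSD1 and 2.29 (1.68 to 3.16) for H3K4me2. Bins without a call included the 1 kb centred 4.5 kb to the right of the window centre, with 16 LSD1, 26 H3K4me2, 3 IgG and 5 Input reads. There LSD1 was 4.35-fold over IgG (1.24 to 23.3) and 2.08-fold over Input (0.730 to 7.28). H3K4me2 was 6.42-fold over IgG (1.97 to 33.2) and 3.08-fold over Input (1.16 to 10.3). This bin had the most H3K4me2 reads of those without a call and was named for that, which the intervals do not allow for. The share of such bins over the genome was not computed.

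T, in chr17:8620001-8640000, held 133 LSD1 and 150 H3K4me2 reads against 63 IgG and 33 Input reads. LSD1 to IgG was 1.72 (1.27 to 2.36) and H3K4me2 to IgG 1.76 (1.31 to 2.41). The H3K4me2 peak, chr17:8626113-8627087, held 23 LSD1 and 38 H3K4me2 reads with 5 IgG and 1 Input. At 3329 bp from it lay an LSD1 peak, chr17:8622254-8622783, with 18 LSD1, 6 H3K4me2, 4 IgG and 0 Input reads. LSD1 exceeded IgG there 3.67-fold (1.21 to 14.9), and H3K4me2 was 1.11-fold over IgG (0.264 to 5.36). In the 1 kb that holds this peak, chr17:8622001-8623000, there were 26 LSD1, 15 H3K4me2, 4 IgG and 0 Input reads. H3K4me2 to IgG was 2.78 (0.885 to 11.5) over that 1 kb and LSD1 to H3K4me2 1.91 (0.973 to 3.87), so H3K4me2 reads lay beside the peak and the second interval reached 1. The LSD1 to H3K4me2 ratio in this peak was 3.30 (1.25 to 10.2), against 0.666 (0.379 to 1.15) in the H3K4me2 peak of the same window. Of all LSD1 peaks 98.3% had a ratio at or below that of the T peak, and of the 422 LSD1 peaks outside H3K4me2 peaks 81.5% did. With starts not moved the ratio was 2.20 (0.938 to 5.56), and its interval reached 1. LSD1 peaks lay in an H3K4me2 peak in 91.7% of cases over the genome, and in 1 of the 2 cases here. The T peak was called on the LSD1 reads counted here, and its LSD1 density of 5.82 RPM per kb was low for its width, with 2.96% of LSD1 peaks of equal width at or below it.

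Pax6, in chr2:105500001-105540000, had the most H3K4me2 peaks. It held 318 LSD1 and 478 H3K4me2 reads against 127 IgG and 59 Input reads, or 2.04-fold over IgG for LSD1 (1.66 to 2.53) and 2.79-fold for H3K4me2 (2.29 to 3.42). Of the 7 H3K4me2 peaks, 3 joined within 1 kb into a domain of 2576 bp, chr2:105514134-105516709, which was wider than or equal to 91.0% of the domains of the genome. The middle peak of this domain, chr2:105514930-105515517, held 22 LSD1 and 24 H3K4me2 reads with 5 IgG and 1 Input. Its LSD1 to H3K4me2 ratio of 1.01 (0.539 to 1.88) ranked highest of the 20 peaks, with 98.4% of peaks of equal width at or below it, and it held no called LSD1 peak. At the other end, chr2:105521164-105521841 held 6 LSD1 and 26 H3K4me2 reads with 6 IgG and 0 Input, a ratio of 0.254 (0.0854 to 0.631), with 5.60% at or below it. The peak with the most H3K4me2 reads, chr2:105499689-105500565, crosses the edge of the window and held 12 LSD1 and 34 H3K4me2 reads with 0 IgG and 2 Input. Outside the peaks the window still held 188 LSD1 and 252 H3K4me2 reads against 87 IgG and 51 Input, with ratios to IgG of 1.76 (1.36 to 2.30) for LSD1 and 2.15 (1.68 to 2.77) for H3K4me2.

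Cdx2, in chr5:148105001-148125000, had the largest share of its window in H3K4me2 peaks, at 12.5% in 4 peaks. It held 121 LSD1 and 213 H3K4me2 reads against 59 IgG and 27 Input. H3K4me2 exceeded IgG 2.68-fold (1.997 to 3.63) and LSD1 did so 1.67-fold (1.21 to 2.32). The LSD1 to H3K4me2 ratio of 0.625 (0.496 to 0.785) was the lowest of the 7 windows, although its interval overlapped those of all the others except that of Gata4, 0.961 (0.837 to 1.10). The peak with the most H3K4me2 reads, chr5:148110709-148111639, held 16 LSD1 and 39 H3K4me2 reads with 3 IgG and 1 Input. The peak chr5:148118030-148118614 held 6 LSD1 and 25 H3K4me2 reads with 2 IgG and 0 Input, a ratio of 0.264 (0.0886 to 0.659). No LSD1 peak was called in the window.

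The order of the windows by LSD1 to IgG was Pax6 (2.04), Foxa2 (2.03), T (1.72), Cdx2 (1.67), Sox17 (1.61), Gata4 (1.28) and Gata6 (0.919). Neighbours in this order had overlapping intervals throughout. By H3K4me2 to IgG the order was Pax6 (2.79), Cdx2 (2.68), Foxa2 (2.29), Sox17 (2.16), T (1.76), Gata4 (1.34) and Gata6 (1.06), again with overlapping neighbours. The Gata4 and Gata6 windows, which came last in both orders, were also the widest. For IgG over Input, the intervals lay above 1 in the Cdx2 window at 1.75 (1.09 to 2.87), the Pax6 window at 1.72 (1.25 to 2.38) and the Gata4 window at 1.51 (1.21 to 1.88), and the lowest values were 1.16 in the Gata6 and Sox17 windows. Set over Input in place of IgG, LSD1 ran in the order Pax6 (3.51), Cdx2 (2.92), T (2.63), Foxa2 (2.48), Gata4 (1.93), Sox17 (1.88) and Gata6 (1.07), so that Foxa2 came after Cdx2 and T and Gata4 no longer stood beside Gata6 at the end. H3K4me2 over Input ran in the order Pax6 (4.80), Cdx2 (4.67), Foxa2 (2.80), T (2.69), Sox17 (2.51), Gata4 (2.01) and Gata6 (1.23). The part of the IgG excess in the order of the windows was not tested.

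**Figure D2:**
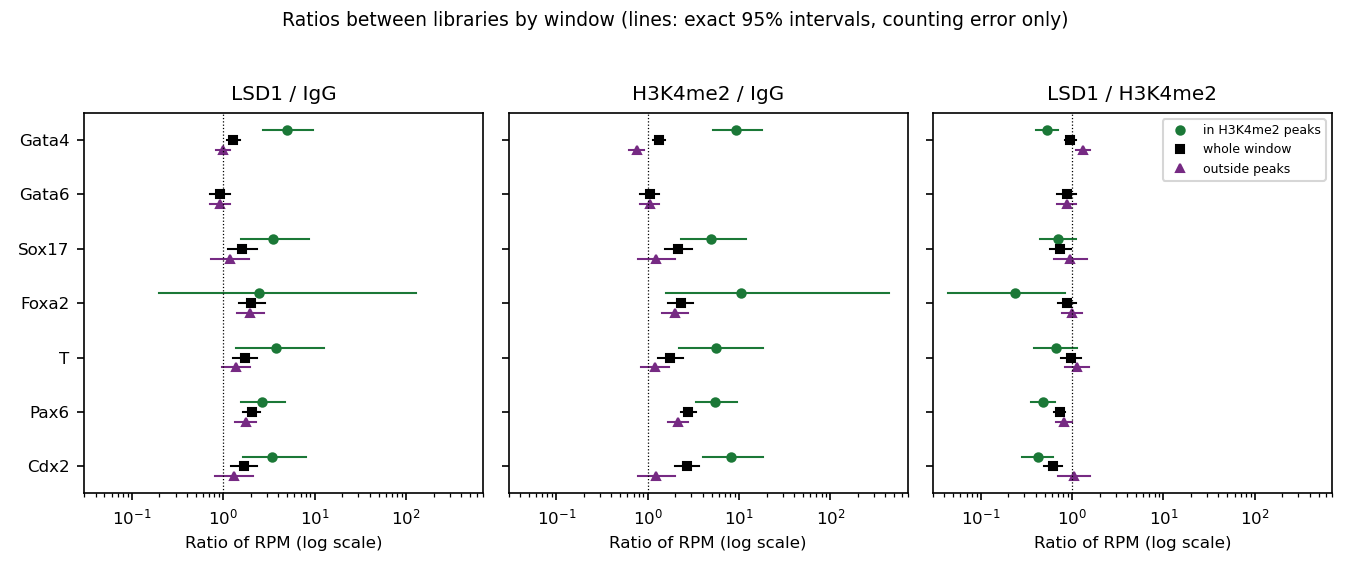
LSD1 to IgG, H3K4me2 to IgG and LSD1 to H3K4me2 ratios of RPM on a log scale for each window, in its H3K4me2 peaks (circles), as a whole (squares) and outside the peaks (triangles), with exact 95% intervals as lines. Ratios to IgG are highest in the peaks, which for H3K4me2 follows from the peak call. Gata6 lies near 1, and Foxa2 and Pax6 keep ratios to IgG near 2 outside their peaks. The T values outside its H3K4me2 peak include its called LSD1 peak.

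The windows were then set beside all autosomal tiles of the same width, which unlike the windows are not centred on genes. A tile of 20 kb reached an LSD1 to IgG ratio of 2-fold in 1.83% of cases and an H3K4me2 to IgG ratio of 2-fold in 6.02%. Among the 4 windows of that width, Foxa2 did so for LSD1, and Foxa2, Sox17 and Cdx2 for H3K4me2. The Pax6 window passed 2-fold for both, as 0.898% of 40 kb tiles did for LSD1 and 4.86% for H3K4me2. The Gata6 window was below 2-fold for both (0.743% and 4.5% of 50 kb tiles), and so was the Gata4 window (0.34% and 3.73% of 90 kb tiles). An H3K4me2 peak was present in 6 of the 7 windows, against 15.4% of tiles of 20 kb, 23.8% of 40 kb, 27.1% of 50 kb and 36.7% of 90 kb. For a called LSD1 peak, present in 2 of the 4 windows of 20 kb and in none of the others, the tile shares were 3.62% at 20 kb, 6.56% at 40 kb, 7.83% at 50 kb and 12.4% at 90 kb. Among tiles with an H3K4me2 peak a called LSD1 peak was present in 22.6% at 20 kb, 26.7% at 40 kb and 33.0% at 90 kb, and among tiles of 50 kb without one in 0.309%.

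Against tiles that themselves hold an H3K4me2 peak, all windows with such a peak ranked above the middle for both ratios to IgG. T was close to the middle for H3K4me2, and Pax6 ranked highest for both. The share of such tiles at or below the H3K4me2 to IgG ratio of the window was 50.7% for T, 63.0% for Gata4, 69.1% for Sox17, 73.7% for Foxa2, 83.7% for Cdx2 and 94.2% for Pax6. For LSD1 to IgG the shares were 69.0% for Sox17, 73.4% for Cdx2, 75.2% for Gata4, 76.5% for T, 89.9% for Foxa2 and 96.8% for Pax6. Gata6, set beside the 34285 tiles of 50 kb without a peak, had an H3K4me2 to IgG ratio at or above 96.6% of them and an LSD1 to IgG ratio at or above 73.7%. The Pax6 window was also high in IgG over Input, at or above 95.7% of 40 kb tiles with a peak, and the Gata4 window at or above 93.8% of 90 kb tiles with a peak.

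The 20 H3K4me2 peaks of the windows were somewhat narrower and less dense than those of the genome. Their widths ran from 313 to 1065 bp with a median of 590.5 bp, against a median of 734 bp over all 32256 peaks. Median H3K4me2 density was 6.10 RPM per kb, against 6.67 over all peaks, and median LSD1 density in the same peaks was 2.91 against 3.44. Set beside peaks of equal width, 7 of the 20 were above the middle of the ranking in H3K4me2 density and 9 of 20 in LSD1 density. H3K4me2 was at least 2-fold over IgG in 20 of the 20 (99.3% of all peaks), which follows from the call on H3K4me2 reads. LSD1 was so in 14 of 20 (79.8% of all peaks), both with a pseudocount of 0.5 reads. A called LSD1 peak lay in 1 of 20, against 14.2% of all H3K4me2 peaks. That share depends on width: among the peaks of equal width to each of the 20 it ran from 4.93% to 17.6%, and was below 14.2% for most.

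Relative to H3K4me2, LSD1 in these peaks did not stand apart from LSD1 in H3K4me2 peaks elsewhere. Summed over the 20 peaks there were 243 LSD1, 516 H3K4me2, 55 IgG and 12 Input reads, giving an LSD1 to H3K4me2 ratio of 0.518 (0.443 to 0.604). Over all H3K4me2 peaks of the genome the same ratio was 0.514 (0.512 to 0.515), inside that interval. By single peaks, with the pseudocount, the median ratio was 0.468 in the windows and 0.509 over all peaks, with values from 0.265 to 1.01 in the windows, against 0.265 to 0.831 for the central 90% of all peaks. Beside peaks of equal width, 9 of the 20 ratios were above the middle of the ranking, and the median rank was 43.9%. The summed ratio by locus was 0.536 (0.405 to 0.706) for Gata4, 0.706 (0.445 to 1.11) for Sox17, 0.236 (0.0434 to 0.844) for Foxa2, 0.666 (0.379 to 1.15) for T, 0.484 (0.353 to 0.656) for Pax6 and 0.426 (0.285 to 0.626) for Cdx2, counting the part of each peak inside the window. Each of these 6 intervals contained the value of all peaks. Ratios to IgG in the 20 peaks, at 3.60 (2.68 to 4.92) for LSD1 and 6.95 (5.26 to 9.36) for H3K4me2, likewise included the genome values of 3.38 and 6.57.

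**Figure D3:**
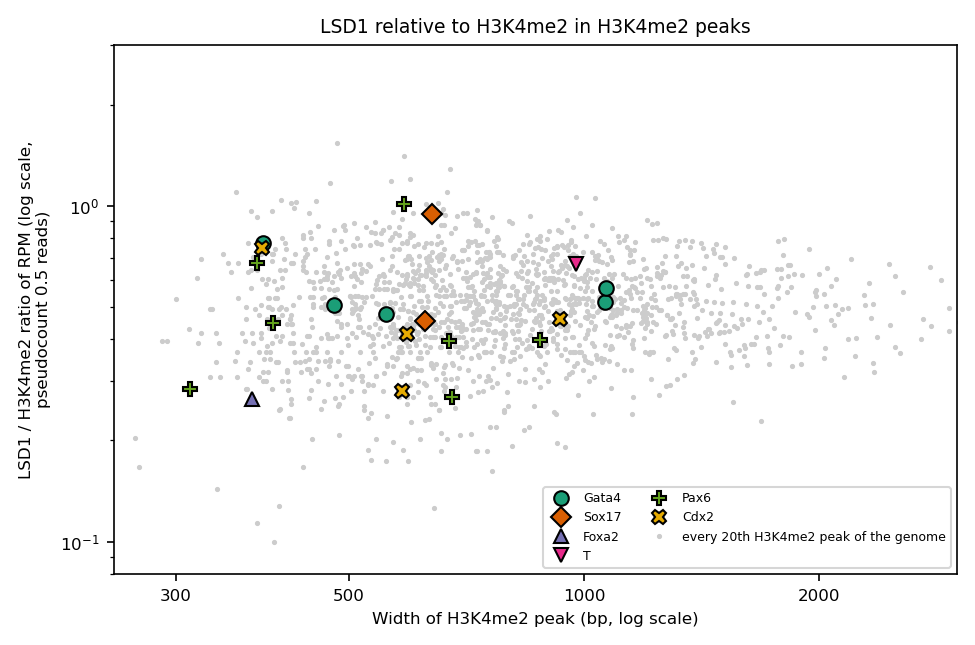
LSD1 to H3K4me2 ratio of RPM against width for the 20 H3K4me2 peaks of the windows (coloured by gene) and for every 20th H3K4me2 peak of the genome (grey), both axes on a log scale. The coloured points lie within the grey cloud, from 0.265 to 1.01, with the highest at Pax6 and Sox17.

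Outside the H3K4me2 peaks, widened by 500 bp on either side, the windows together differed from the autosomes as a whole. Their 230390 bp held 903 LSD1 and 978 H3K4me2 reads against 595 IgG and 371 Input reads. LSD1 was 1.24-fold over IgG (1.11 to 1.37) and H3K4me2 1.22-fold (1.10 to 1.35), whereas over the autosomes outside such peaks LSD1 was 0.901 of IgG (0.900 to 0.902) and H3K4me2 0.785 (0.784 to 0.786). LSD1 and H3K4me2 were level with each other there, with a ratio of 1.02 (0.927 to 1.11), against 1.15 over the autosomes. Tiles with an H3K4me2 peak are a closer reference, with median LSD1 to IgG ratios outside peaks of 0.964 at 90 kb and 1.05 at 20 kb. The excess over IgG was not shared by all windows. For LSD1 to IgG outside peaks, Foxa2 lay at or above 98.1% and Pax6 at or above 99.1% of the equally wide tiles with an H3K4me2 peak. For H3K4me2 to IgG these shares were 92.8% for Foxa2 and 98.3% for Pax6. LSD1 to IgG ratios outside peaks were 1.37 (0.973 to 1.94) for T, 1.30 (0.819 to 2.09) for Cdx2, 1.17 (0.730 to 1.90) for Sox17 and 0.998 for Gata4. They were at or above 82.5%, 77.5%, 65.5% and 58.1% of such tiles, in that order. The T part outside H3K4me2 peaks still held the called LSD1 peak of that window, with 18 LSD1 and 4 IgG reads. That peak was called on the LSD1 reads counted here, and it also enters the sum over the 7 windows. The ratios without it were not computed. With the peaks widened by 2000 bp in place of 500 bp, the LSD1 to IgG ratio over the 7 windows was 1.12 (0.992 to 1.27). Its interval reached 1 but not the autosomal value of 0.901, which was computed with 500 bp. An autosomal value with 2000 bp was not computed.

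**Figure D4:**
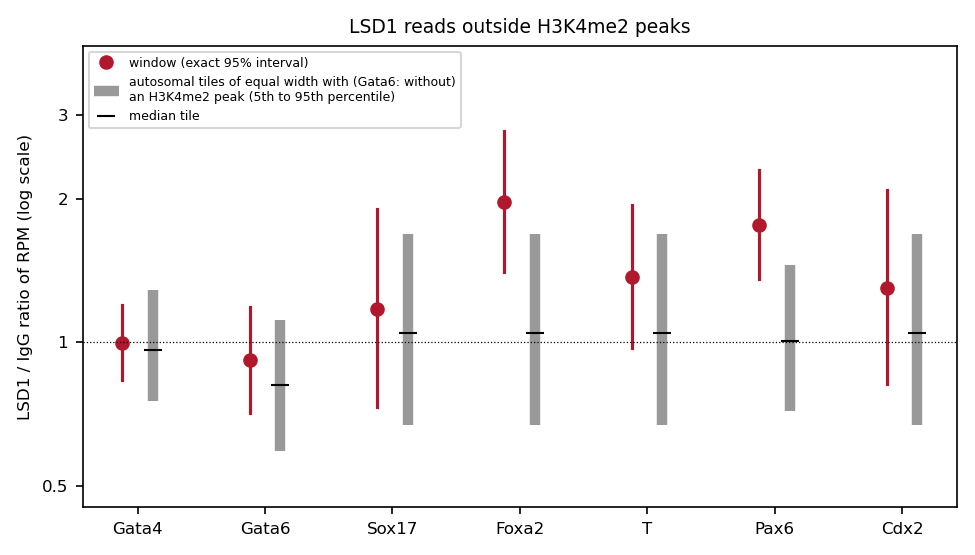
LSD1 to IgG ratio of RPM (log scale) outside H3K4me2 peaks for each window with its exact 95% interval (red), beside the 5th to 95th percentile and median of equally wide autosomal tiles (grey), which hold an H3K4me2 peak except for Gata6. The Foxa2 value of 1.97 and the Pax6 value of 1.76 lie above the grey bars, and the other 5 lie within them. The T value includes the called LSD1 peak of that window.

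The 5 kb tile with the most H3K4me2 reads was also the one with the most LSD1 reads in 7 of the 7 windows. Autosomal tiles with an H3K4me2 peak had the same densest 5 kb in both libraries in 87.5% of cases at 20 kb, 82.7% at 40 kb and 77.2% at 90 kb, and tiles of 50 kb without a peak, the class of the Gata6 window, in 29.5%. A window of 20 kb holds only 4 such tiles, so the count in the windows with a peak was near the background. LSD1 and IgG shared their densest tile in 5 of the 7 windows (Gata6, Sox17, Foxa2, T and Cdx2), against 50.2% of 20 kb, 36.7% of 40 kb and 26.4% of 90 kb tiles with a peak and 18.8% of 50 kb tiles without one. LSD1 and Input shared it in 0 of the 7 windows, against 26.3% of 20 kb, 14.4% of 40 kb and 7.18% of 90 kb tiles with a peak and 14.1% of 50 kb tiles without one.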

How the data were processed

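ChIP-seq reads and peak positions of 4 libraries, 1 per group, were used. Fragments of about 200 bp were sequenced as 36-base reads and placed on mm9, per the labels' protocols and the submitters' processing notes. For the aligner, the peak caller, its threshold and its control, nothing is given in the sources used here. The authors deposited 1 line per read with position and strand, in which 0 reads repeated the start and strand of another read of the library, and for IgG, LSD1 and H3K4me2 a list of peak positions without score. Depth ran from 3801082 reads in the Input to 6416657 in the H3K4me2 library. For a count of 0 a floor of 3 reads was taken, or 0.514 RPM in LSD1 and 0.631 RPM in IgG. This floor lies below the upper limit that the exact intervals of densities give for 0 reads.

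Each read start was moved 100 bp along its strand and the reads per region were counted. Counts were scaled to RPM of all reads. Intervals of ratios are exact binomial 95% intervals given the 2 counts together, and those of densities are exact Poisson intervals, covering counting error only. Ranks and tiles used a pseudocount of 0.5 reads. Tiles with under 25% of the median Input reads were left out, and for ranks outside peaks those with under 50% of their length outside. Peaks overlapped if they shared 1 bp, and domains joined peaks within 1 kb. The ranking and intervals were tested on simulated data. The windows, the members and the comparisons were chosen with earlier results of these data known. In each window the H3K4me2 peak with the most reads and every LSD1 peak were to be named, and the other named peaks were chosen after their values were seen. No mm9 genome or annotation was used, so a list of 10 further lineage regulators was not run. Promoters are from RefSeq, GRCm38.p6. The tools were scipy 1.17.1 and numpy 2.4.6 for the statistics, pandas 2.3.3 for the tables and matplotlib 3.10.9 for plots, under Python 3.11.15.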

Additional observations from a re-analysis of the deposited data

How the results depend on the processing

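No paired analysis was possible because there was a single library in each group, so no replicate could be left out either. Over 36 results, 128 alternative values were computed, of which 16 moved beyond the interval of the main value. The direction changed in 3 of the 128, all ratios whose main interval included 1, and not all of these were among the 16. LSD1 to IgG in the Gata6 window was 1.07 with Input as the control, against 0.919. With starts not moved LSD1 to H3K4me2 was 2.06 in the Sox17 LSD1 peak, against 0.753, and 1.06 in the Sox17 H3K4me2 peak that holds it, against 0.943. With Input as the control, the ratios were 2.16 for LSD1 and 2.61 for H3K4me2 in the 7 windows, and 1.59 for LSD1 outside H3K4me2 peaks. Scaling to reads outside all called peaks gave 2.21 for H3K4me2 to IgG. Leaving out the Gata4 window gave 2.08 for H3K4me2 to IgG and 1.38 for LSD1 to IgG outside peaks, and leaving out the Pax6 window gave 1.62 for H3K4me2 to IgG. The causes were not tested. The LSD1 to H3K4me2 ratio in the H3K4me2 peaks of the windows stayed between 0.463 and 0.541 under its 11 alternatives, and 9 or 10 of the 20 peaks ranked above the middle under each alternative. Leaving out peaks that touch an IgG peak changed nothing by construction, since there were 0 of them. Leaving out the Gata6 window could not change the ratio in the H3K4me2 peaks either, since that window holds 0 such peaks. Single peaks held few reads, so differences between them within these windows were mostly not detectable at this depth.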
